A study of Mus musculus with 2 samples.

Results

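The genes described here are 9 small leucine-rich proteoglycans (SLRPs) and Prg4, 10 genes out of 34740 genes and transcripts with a probe on the array. They were chosen by name, as every non-control spot whose gene name in the scanner output is Dcn, Lum, Ogn, Omd, Bgn, Fmod, Prelp, Aspn, Kera or Prg4, which gave 11 probes on 20 spots. SLRPs are secreted proteins with a core of leucine-rich repeats that carries chondroitin, dermatan or keratan sulfate chains, or none. They bind collagen and govern the width and spacing of its fibrils, and some hold growth factors in the matrix. Fibroblasts make them, and in the brain the main fibroblasts lie in the leptomeninges, the thin membranes on its surface, and along vessels. Prg4 encodes lubricin, a large mucin-like lubricant of joint surfaces that is not an SLRP.

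The data are 2 expression arrays of the hippocampus of ICR mice, an outbred strain. One array holds RNA of sham-operated mice and the other RNA of 5/6Nx mice, both taken 8 weeks after the operation. 5/6Nx is the usual short form of 5/6 nephrectomy, in which most kidney tissue is removed to model chronic kidney disease. The age and sex of the mice, how many gave each RNA sample and how the hippocampus was freed of its membranes are not stated in the labels. With 1 array per group no test between the groups was possible, so every difference describes these arrays only and "lower" or "higher" states a size. Of 59305 non-control spots, 72.7% in sham and 72.5% in 5/6Nx were well above background and 0 were saturated. Neuronal and glial genes marked the tissue as brain: all 8 hippocampal neuron markers and all 6 astrocyte markers of the lists used here were measured on both arrays, with median differences of 0.02 and 0.05.

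The array reads each gene through 60-base probes, and 9 of the 10 genes had 1 probe, so most values below rest on a single sequence. The first 30 of the 60 bases are shown for the probes of the 8 genes that were well above background on both arrays. They are printed 5′ to 3′ in lower case, with AATAAA or ATTAAA, the hexamers of polyadenylation signals, in capitals.
Dcn: aacaccttcagatgtgtctatgtgcgttct
Lum: taagcatttgcacggttacttagtgaaact
Fmod: ggcaagcgtggttttcaaaacatgagaaag
Omd: taaagatcagaactgcgtttaagatgttgg
Ogn: cATTAAAgcatctgtgaactgtaaggccac
Prelp: gaAATAAAgtcatatggaaaacacccagca
Bgn: caatcagattcggatgattgagaatgggag
Prg4, main probe: caactgtccttgaactgattgacaaagaag
Prg4, other probe: gctactaatagccacaaaactttcggtgca
Of the 11 probes 3 held such a hexamer on the probe strand (those of Ogn, Prelp and Aspn), against 13.7% of all 55681 probes. On the mm9 build the probe of Dcn lies at chr10:96980233-96980292, that of Lum at chr10:97035210-97035269 and that of Kera at chr10:97076230-97076289, all on the plus strand. The probe of Aspn lies at chr13:49662479-49662538, that of Omd at chr13:49687847-49687906 and that of Ogn at chr13:49719549-49719608, again on the plus strand. The probes of Prelp (chr1:135806855-135806914) and Prg4 (main probe chr1:152297067-152297126) are on the minus strand, and those of Fmod (chr1:135943998-135944057) and Bgn (chrX:70738554-70738613) on the plus strand. Whether a probe lies in a coding exon or an untranslated region was not determined, since no annotation of that build was used.

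Most of the measured SLRP genes gave a lower signal in the 5/6Nx sample, at between 15.4% and 25.1% of the sham level for Dcn, Lum, Ogn, Omd and Fmod. Each array was first divided by its 75th percentile of intensity. Differences are log2 values of 5/6Nx minus sham, and a gene is called lower or higher at 2-fold or more. Of the 10 genes 8 were measured, that is well above background on both arrays. Of these, 6 were at least 2-fold lower and 0 at least 2-fold higher. Among the 25917 genes measured on both arrays 3.28% were at least 2-fold lower, 4.89% at least 2-fold higher, and 8.18% were apart by that size in either direction. All 6 were also at least 3-fold lower, a size that 0.941% of measured genes had, and 7 were at least 1.5-fold lower, as were 8.92% of measured genes. Of the 6, Prg4 was under 3-fold with normexp background correction (-1.25) and with no background subtraction (-1.15). Of the 8, only Dcn and Ogn had a mean signal above the median of the 25917 measured genes, and both were at least 2-fold lower, against 2.35% of the genes above that median. The median difference was -2.16 over the 8 measured genes and 0.05 over all measured genes. In tissue RNA, fewer cells of a type and less RNA per cell cannot be told apart.

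Dcn encodes decorin, a class I SLRP with 1 chondroitin or dermatan sulfate chain that coats collagen fibrils and binds TGF-beta. The Dcn probe read 48789 in sham and 10662 in 5/6Nx (processed intensity), with error estimates by the scanner software of 4879 and 1066. The 5/6Nx value was 25.1% of the sham value after scaling, a difference of -1.99 (3.98-fold lower), and 118 of the 25917 measured genes had a difference as low or lower. The error estimates cover the reading of a spot and not the spread between animals.

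Bgn encodes biglycan, the class I relative of decorin with 2 chain attachment sites, which when soluble also acts on Toll-like receptors. The Bgn probe read 634 in sham against 578 in 5/6Nx. The arrays were nearly level, with a difference of 0.07 that lay between -0.17 and 0.12 under the other normalizations and background corrections and was negative under 5 of them. About as many measured genes lay below Bgn (13353 at or below it) as above, so biglycan stood in the middle of the array while decorin stood in its lower tail. Aspn encodes asporin, a class I SLRP of cartilage and ligament without a glycosaminoglycan chain. It was well above background in sham only, at 33.8 against 16.7 in 5/6Nx, which as processed here gives a bound of 1.56-fold lower. The scanner error estimates were 5.12 and 4.53. Before background subtraction the spot read 112 in sham and 96 in 5/6Nx, so the bound rests on that subtraction and is not a firm minimum.

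Most class II genes encode proteins that carry keratan sulfate or related chains, and the class acts on collagen fibril growth. Lum encodes lumican, a keratan sulfate proteoglycan of cornea and other connective tissue, and gave 1491 in sham and 286 in 5/6Nx. Its difference was -2.18 (4.53-fold lower). Fmod encodes fibromodulin, which steers collagen cross-linking in tendon, and gave 1513 in sham and 299 in 5/6Nx, a difference of -2.14 (22.7% of sham). Both values in 5/6Nx stood far above the lowest signal counted as well above background there (18.8), so neither difference turns on a signal at the detection limit.

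Omd encodes osteomodulin, also named osteoadherin, a keratan sulfate proteoglycan of bone matrix. It gave 481 in sham and 64.4 in 5/6Nx, a difference of -2.70 (6.50-fold lower), which only 43 measured genes matched or undercut. Ogn encodes osteoglycin or mimecan, the class III SLRP here, which takes part in collagen fibril assembly. It gave 3040 in sham and 518 in 5/6Nx, a difference of -2.35 (5.11-fold lower). Omd and Ogn are neighbours on chromosome 13 and both were lower.

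Prelp encodes prolargin, a class II SLRP with a basic amino-terminal region that binds heparan sulfate and anchors basement membranes to connective tissue. It gave 82.7 in sham with a scanner error estimate of 9.45, and 41.6 in 5/6Nx with an error estimate of 6.27. The difference of -0.79 missed the 2-fold size, and 5.37% of measured genes had a difference as low or lower. It reached 2-fold after removal of the trend with signal (-1.01) and with scaling to the spike-in controls (-1.03), but was -0.19 with no background subtraction. Prelp thus had the same sign under each of these and sizes on both sides of the 2-fold line.

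Kera encodes keratocan, a keratan sulfate proteoglycan known mainly from the cornea. Its probe was printed 10 times on each array. In sham the 10 spots ran from 6.18 to 19.3 with a median of 14.3, and 1 of them was well above background. In 5/6Nx the 9 spots kept ran from 3.89 to 9.77 with a median of 4.47, and 0 were well above background. One further 5/6Nx spot, at 22.7, was an outlier by the scanner's flag and was left out. No fold is given for Kera, since neither array had it well above background.

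Prg4 encodes lubricin. Its main probe, the one that stands for the gene, gave 194 in sham and 25.1 in 5/6Nx, a difference of -2.75 (6.74-fold lower). Its other probe gave 26.6 in sham and 20.5 in 5/6Nx, where it was not well above background. The scanner error estimates were 5.09 and 4.77, so the sign of its difference (-0.17) is not settled. The probes thus gave very different sizes, and the main probe in 5/6Nx was near the lowest signal counted as well above background there (18.8). With normexp background correction the difference of Prg4 was -1.25, and with no background subtraction -1.15.

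**Figure D1:**
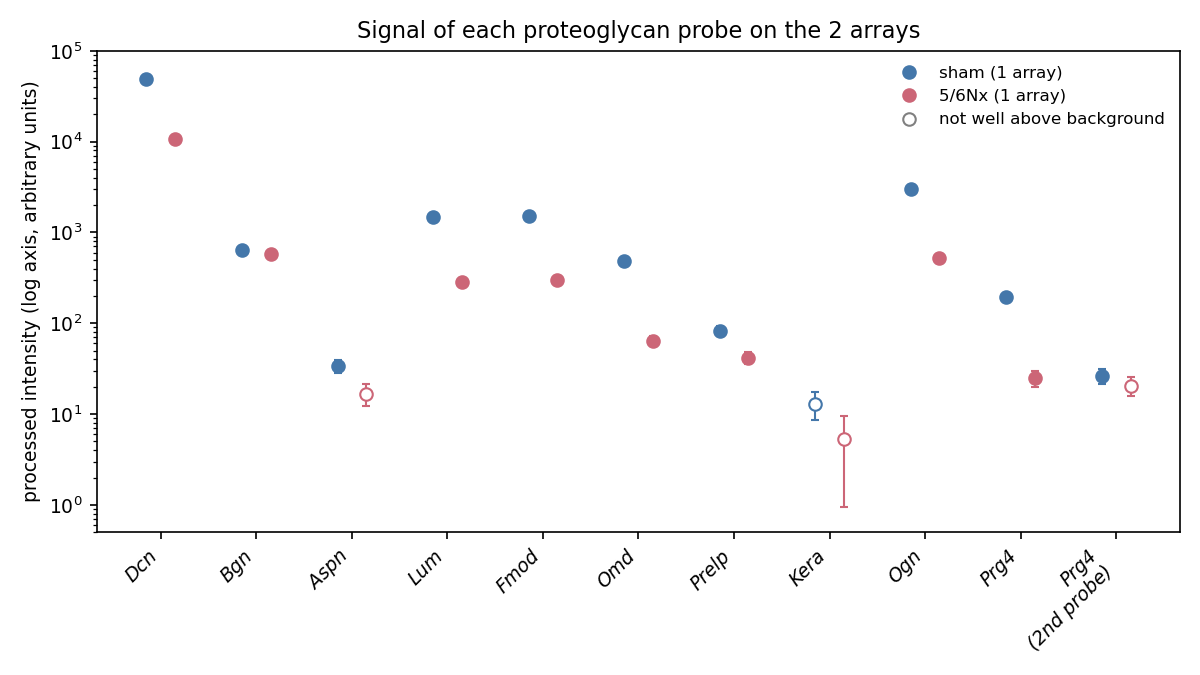
Processed intensity (log axis, arbitrary units) of each of the 11 probes on the sham array and the 5/6Nx array, with the scanner software's error estimate as bars (mean over spots for Kera) and open points for probes not well above background. Dcn, Lum, Fmod, Omd, Ogn and the main Prg4 probe are lower in 5/6Nx, while Bgn is at 634 and 578; intensities of different probes are not comparable with each other.

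In order of their difference as reported the measured genes were Prg4, Omd, Ogn, Lum, Fmod, Dcn, Prelp and Bgn. With no background subtraction Ogn (-2.18) and Dcn (-2.04) came first, Fmod (-1.91) and Lum (-1.88) next, and Omd (-1.74) and Prg4 (-1.15) last of the 6, so the order among these 6 is not settled. Different probes of the same gene spread by 0.20 (SD of the differences, median over 7993 genes with several measured probes), which gives a technical yardstick. As reported, each neighbouring pair among Ogn, Lum, Fmod and Dcn lay closer together than that, and the steps from Dcn to Prelp and from Prelp to Bgn were larger. The probes of Prg4 lay much farther apart than this yardstick, at -2.75 and, not well above background in 5/6Nx, -0.17. So 5 SLRP genes of all 3 classes had differences between -2.70 and -1.99, with Prelp and Bgn apart from them.

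**Figure D2:**
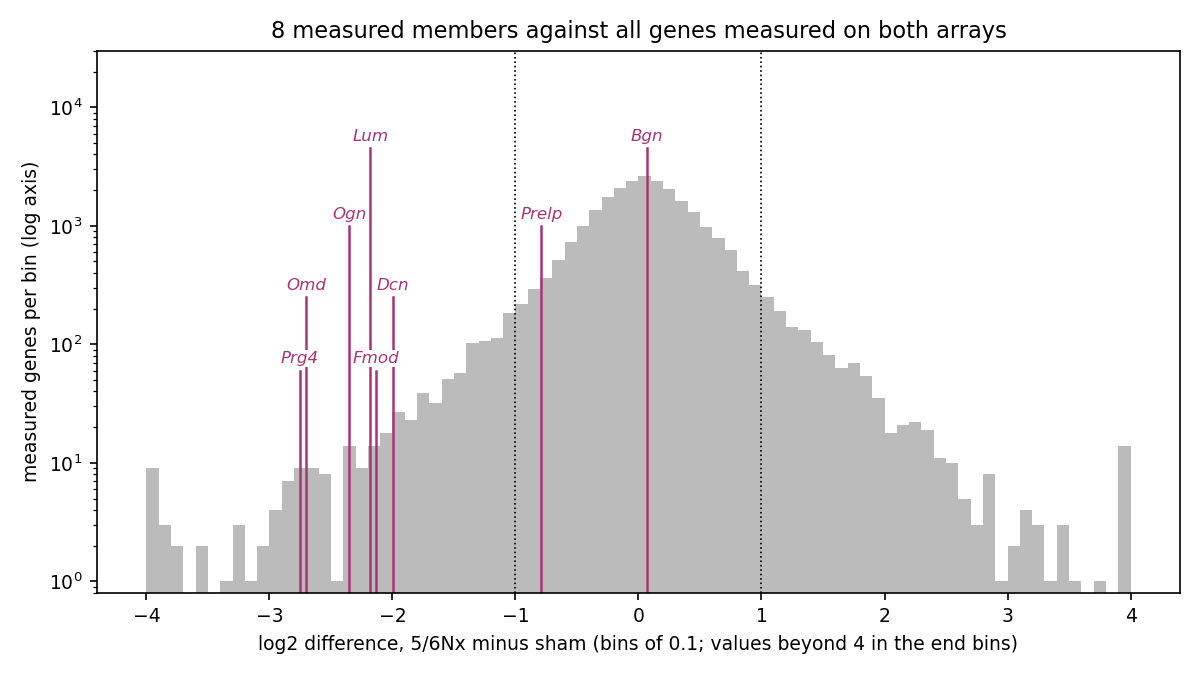
Number of measured genes (log axis) per bin of log2 difference, 5/6Nx minus sham, over 25917 genes, with the 8 measured proteoglycan genes as purple lines whose heights carry no value. Dotted lines mark 2-fold; 6 of the 8 lie to the left of the lower line, Prelp at -0.79 lies inside it, and Bgn at 0.07 lies in the centre.

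Most SLRP genes sit in clusters that arose by duplication. In RefSeq gene order (GRCm38.p6, used for order only) Dcn, Lum and Kera are neighbours, as are Aspn, Omd and Ogn, and Prelp and Fmod. On the array's mm9 coordinates the Dcn and Lum probes are 55.0 kb apart, those of Omd and Ogn 31.7 kb and those of Prelp and Fmod 137 kb. Among the 3 protein-coding genes on each side of these clusters and of Prg4 and Bgn, 22 of 30 were measured. None of the 22 was at least 2-fold lower and 1 was at least 2-fold higher (Trex2, an exonuclease gene near Bgn, at 1.03), with a median of -0.11. Over all measured genes the shares were 3.28% lower and 4.89% higher, so these counts do not set the neighbours apart from other genes. Trex2 was under 2-fold in the authors' deposited table and under all other scalings and background corrections (0.51 to 0.87), and Chil1, a chitinase-like gene near Fmod, went from -0.87 to -1.02 with scaling to the median and -1.10 with spike-in scaling. Next to the Dcn cluster Btg1, an antiproliferative gene, stood at 0.12, and Epyc, the epiphycan gene of the same cluster, was not well above background in sham or 5/6Nx.

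On chromosome 13 the gene order was Cenpp, Ecm2, Aspn, Omd, Ogn and Nol8. Cenpp, which encodes a centromere protein, spans Ecm2, Aspn, Omd and Ogn in RefSeq, and its probe gave 309 in sham and 359 in 5/6Nx, a difference of 0.42. Ecm2, an extracellular matrix gene related to the SLRPs, gave 642 and 482, a difference of -0.21, and the ribosome assembly gene Nol8 stood at -0.30. Omd and Ogn at -2.70 and -2.35 thus stood apart in value from the genes around and across them. On chromosome 1 Fmod at -2.14 lay between Prelp at -0.79 and Btg2, a further antiproliferative gene, at 0.39, and the eye SLRP gene Optc beyond Prelp stood at -0.27.

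**Figure D3:**
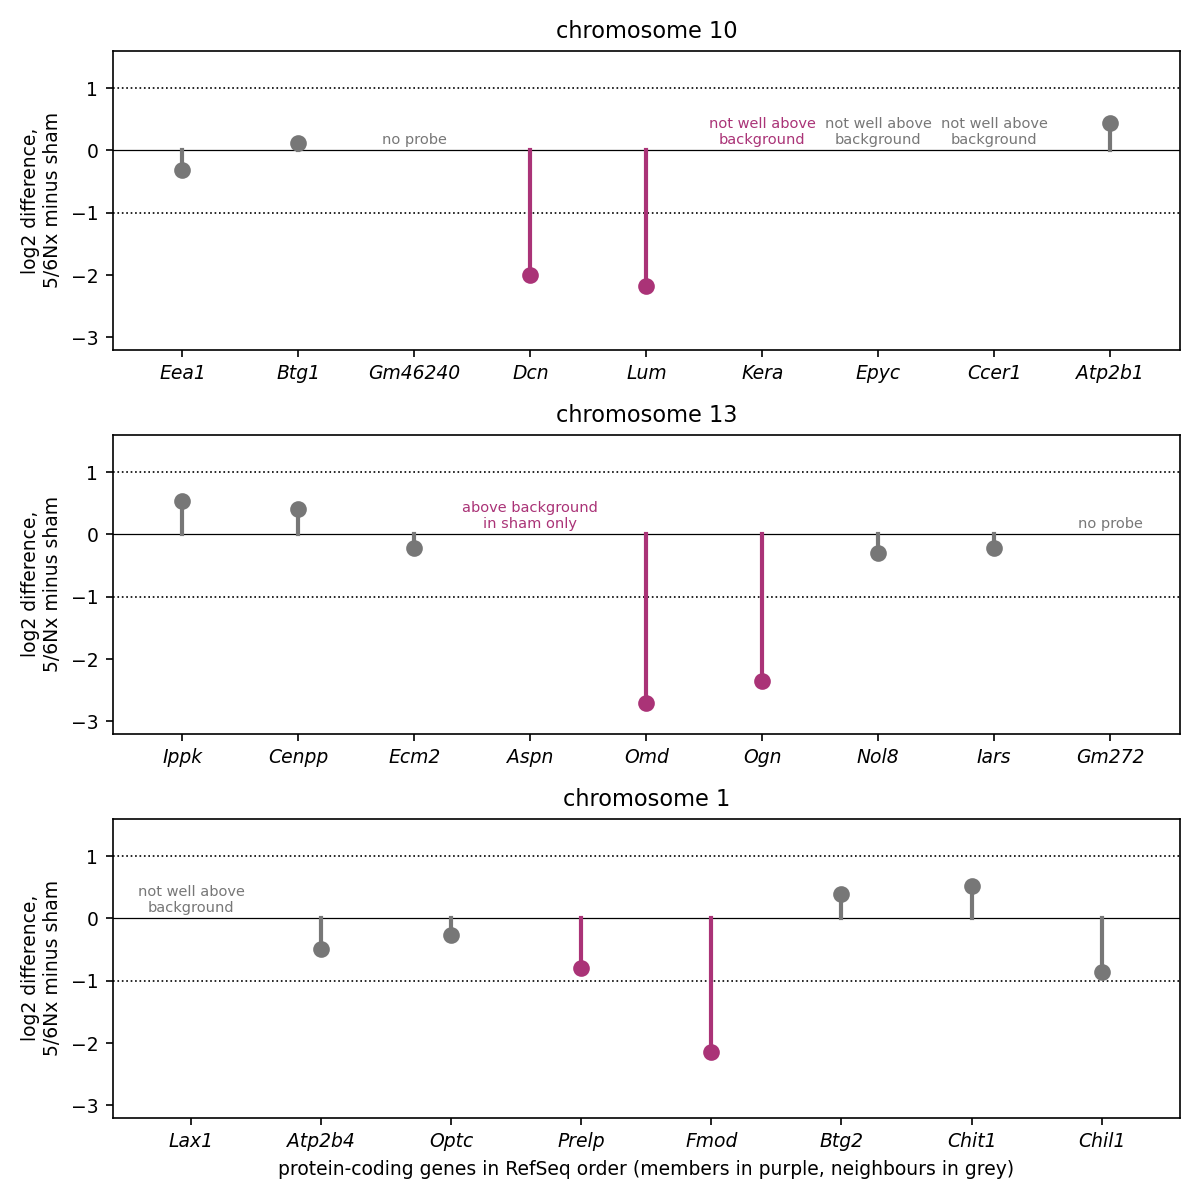
Log2 difference, 5/6Nx minus sham, of the clustered proteoglycan genes (purple) and the 3 protein-coding genes on each side (grey), in RefSeq order along chromosomes 10, 13 and 1. Dotted lines mark 2-fold; Dcn, Lum, Omd, Ogn and Fmod lie below the lower line and every measured grey neighbour lies between the lines.

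Promoter sequence was at hand for 7 of the 10 genes, from RefSeq on GRCm38.p6 (250 bases before to 50 after the annotated start). The 100 bases before the start are shown for Ogn, Omd and Fmod, which were lower together, and for Bgn, which was not. Capitals mark matches on either strand to TATAAA, the letters of a common core promoter element, to CCAAT, to GGGCGG, a GC box, or to CANNTG, an E-box.
Ogn: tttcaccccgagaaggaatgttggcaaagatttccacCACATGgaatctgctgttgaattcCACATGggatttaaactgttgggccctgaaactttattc
Omd: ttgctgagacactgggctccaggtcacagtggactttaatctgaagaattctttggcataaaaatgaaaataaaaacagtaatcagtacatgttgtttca
Fmod: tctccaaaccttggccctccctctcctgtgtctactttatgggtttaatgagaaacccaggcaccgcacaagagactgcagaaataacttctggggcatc
Bgn: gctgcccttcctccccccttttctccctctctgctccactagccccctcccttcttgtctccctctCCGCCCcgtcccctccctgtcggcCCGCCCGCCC
These stretches lie at chr13:49607915-49608014, chr13:49582362-49582461, chr1:134037154-134037253 and chrX:73483501-73483600, all on the plus strand. Over the whole 300-base window Bgn held 3 matches to GGGCGG, of which the last 2 overlap, and the other 6 promoters held 0, while 35.7% of all 32851 promoters held at least 1. Ogn held 4 matches to CANNTG, Fmod and Bgn 1 each and Omd 0, against 72.3% of all promoters with at least 1. TATAAA was found in Ogn (2 overlapping matches on opposite strands, far upstream) and Aspn, and in 13.6% of all promoters, and CCAAT in Fmod, Prelp, Kera and Aspn, and in 37.4% of all. The share of G and C was 63.7% in Bgn, 51.0% in Fmod, 42.3% in Ogn and 37.7% in Omd, with a median of 52.7% over all promoters. A match describes the letters only.

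Other SLRP genes were centred near 0. Of 9 further family genes 8 were measured, 0 were at least 2-fold apart, and their median was -0.07. They included Nyx, the nyctalopin gene of retinal synapses (0.62), Podnl1 (-0.35) and Optc (-0.27). The median was -0.31 when the arrays were set to the spike-in controls and 0.08 with no background subtraction.

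The list of collagens bound by SLRPs and of enzymes and proteins of fibril assembly was mixed. Of 23 genes 22 were measured, 5 were at least 2-fold lower, 2 at least 2-fold higher, and the median was 0.07. Col3a1, the type III collagen gene, gave 452 in sham and 68.5 in 5/6Nx, a difference of -2.52. The type I collagen genes Col1a1 (1763 and 512) and Col1a2 (5778 and 1842) had differences of -1.58 and -1.45. The procollagen C-proteinase enhancer gene Pcolce lay at the threshold (6910 and 3006), whereas its relative Pcolce2 was higher at 1.35. Pcolce ended just under 2-fold with quantile normalization (-0.97). The other higher gene was Bmp1 at 1.02. Bmp1 was under 2-fold with scaling to the median (0.87), with spike-in scaling (0.79) and as the mean of its probes (0.70). The other fibrillar collagen genes of the list, Col5a1 at 0.12 and Col5a2 at 0.48, were not lower, and Col6a1, of the type VI collagen that forms microfibrils, stood at 0.61. Another type VI gene, Col6a3, was at -1.15, but at -0.71 with normexp and -0.63 with no background subtraction. The collagen genes thus went in both directions, and the list was centred near 0.

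Genes that build the sugar chains showed no common difference. Of 22 genes of chondroitin and dermatan sulfate assembly, all measured, 2 were at least 2-fold lower, 0 were higher, and the median was -0.07. The linker galactosyltransferase gene B3galt6 (-1.25) and the chondroitin synthase gene Chsy3 (-1.13) were lower, Chsy3 under 2-fold with normexp (-0.51) or no background subtraction (-0.47), and the chain polymerising factor gene Chpf2 had the highest value (0.92). Of 8 genes of keratan sulfate assembly 6 were measured and 0 were at least 2-fold apart, with a median of 0.27, Chst5 at -0.43 and Chst1 at 0.42.

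Among 13 soluble ligands that SLRPs bind, 11 were measured and 1 was at least 2-fold lower, with a median of 0.02. The lower gene was Ccn4, a matricellular protein that binds decorin and biglycan, at -1.47 (under 2-fold with normexp or no background subtraction), and Ccn2 followed at -0.85, or -1.01 with scaling to the median and -1.09 with spike-in scaling. Of 13 receptors of soluble SLRPs and lubricin, 12 were measured and 0 were at least 2-fold apart (median -0.08), including Tlr4 (-0.87), the hyaluronan and lubricin receptor gene Cd44 (-0.49) and Tlr2 (0.44). Tlr4 was just past 2-fold lower under the 4 other scalings and in the authors' deposited table, from -1.11 to -1.02. These counts rest on the brightest probe of each gene, and dimmer probes could differ. A second probe of Cd44 stood at -1.27, and one of the receptor gene P2rx4 at -1.51, against -0.08 for its brightest. Lrp1, an endocytic receptor gene, was at 1.11 as the mean of its probes. Among the ligands the dimmer probes of Igf1 ran from -1.20 to -0.27, against 0.03 for its brightest. Of 11 proteases that can cut SLRPs 7 were measured and 0 were at least 2-fold apart (median 0.45). Mmp14 stood at 0.87 and Ctsk at -0.78, or -1.02 with spike-in scaling. A dimmer probe of Adamts4 stood at -1.21, against 0.43 for its brightest. The list of proteoglycans of the brain, with 17 of 18 genes measured, had a median of 0.17. Besides the large matrix proteoglycans it holds link protein genes, the tenascin-R gene and cell-surface proteoglycans (syndecans and glypicans). In that list the link protein gene Hapln1 stood at -1.30 and Hapln2, of the nodes of Ranvier, at 1.35, and the aggrecan gene Acan stood at 0.90.

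Among markers of leptomeningeal fibroblasts other than the SLRPs, 20 of 22 were measured, 12 of the 20 were at least 2-fold lower, 0 higher, and the median was -1.39. With normexp or no background subtraction 10 of the 20 were at least 2-fold lower. The lowest were the transporter genes Slc13a3 (-2.71) and Slc22a6 (-2.61), the retinoic acid synthesis gene Aldh1a2 (-2.59) and the GABA and taurine transporter gene Slc6a13 (-2.53), near the values of Ogn and Omd. The other 8 measured markers missed the 2-fold size. They were Slc6a20a (-0.97), Nupr1 (-0.96), Mgp (-0.83), Igf2 (-0.50), Igfbp2 (-0.30), Ptgds (-0.14), Gjb6 (0.25) and Dpp4 (0.54). The remaining 2 markers, Cdh1 and Slc47a1, were well above background in sham only. The summed intensity of the 20 markers was 369245 in sham and 271045 in 5/6Nx. Most of that sum was Ptgds, the prostaglandin D synthase gene (286971 and 227229), and the other 19 summed to 82275 and 43816. The type I and III collagen genes are also in this list. The part of these markers in the SLRP differences was not tested. The name of the gene group, as genes of the meninges, could not be checked cell by cell in tissue RNA. Bgn, at 0.07, lay above the median of these markers and within their range.

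Markers of other cells of the brain surface and of vessels were read beside them. Of 6 border macrophage markers 5 were measured and all 5 were at least 2-fold lower (median -1.91), among them Lyve1 (-2.83) and Pf4 (-2.40), with a summed intensity of 3799 in sham and 843 in 5/6Nx. With normexp and with no background subtraction 4 of the 5 were (medians of -1.52 and -1.40), since Ms4a7 then stood at -0.82 and -0.77. Cd163 was not well above background in sham or 5/6Nx. Of 10 perivascular fibroblast markers 9 were measured and 3 were at least 2-fold lower (median -0.62), namely Spp1 (-1.94), Cyp1b1 (-1.39) and Lama1 (-1.06), with sums of 61715 and 52074. Vascular smooth muscle had 0 of 5 measured markers at least 2-fold apart (median -0.04, Acta2 at -0.69, sums of 6845 and 5352) and endothelium 0 of 8 (median 0.15, Slco1a4 at 0.49, sums of 59099 and 55804). Pericytes had 1 of 6 lower (Anpep at -1.33) and 1 higher (Abcc9 at 1.02), with a median of 0.27 and sums of 7342 and 5663. Abcc9 was at 0.78 to 0.92 under every other scaling and background correction and in the authors' deposited table. Scaled as the differences were, the 5/6Nx sums were 25.5% of sham for border macrophages, 97.0% for perivascular fibroblasts and 84.4% for leptomeningeal fibroblasts. They were 89.9% for smooth muscle, 108.5% for endothelium and 88.6% for pericytes. Most of the perivascular sum was Cygb, the cytoglobin gene (33085 and 36009, a difference of 0.32), so the 97.0% mainly follows that gene. Of the 9 measured perivascular markers 6 were below 0.

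Other tissues also differed between the arrays. Choroid plexus epithelium had 10 of 11 measured markers at least 2-fold higher (median 3.58, Ttr at 6.66 and Clic6 at 4.90), with sums of 5050 in sham and 210675 in 5/6Nx. Red cell markers had 5 of 6 at least 2-fold lower, or 6 under the other scalings (median -3.65, Hbb-bt at -3.97), with sums of 302387 and 21288, and neutrophil markers 4 of 4 measured (median -2.89, S100a9 at -4.39), with sums of 4597 and 551. The part of these differences in tissue makeup in the SLRP values was not tested. Markers of cartilage and tendon, where Prg4, Fmod and Aspn are known from, had 0 of 6 measured genes at least 2-fold apart (median 0.42, Acan at 0.90), with sums of 3326 and 3822, and Tnmd and Matn1 were not well above background in sham or 5/6Nx. Oligodendrocyte markers had 1 of 6 lower (Opalin at -2.30, median -0.37), astrocyte markers 1 of 6 higher (Gfap at 1.12, or 0.96 with scaling to the median and 0.88 with spike-in scaling) and hippocampal neuron markers 1 of 8 lower (Wfs1 at -1.12).

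**Figure D4:**
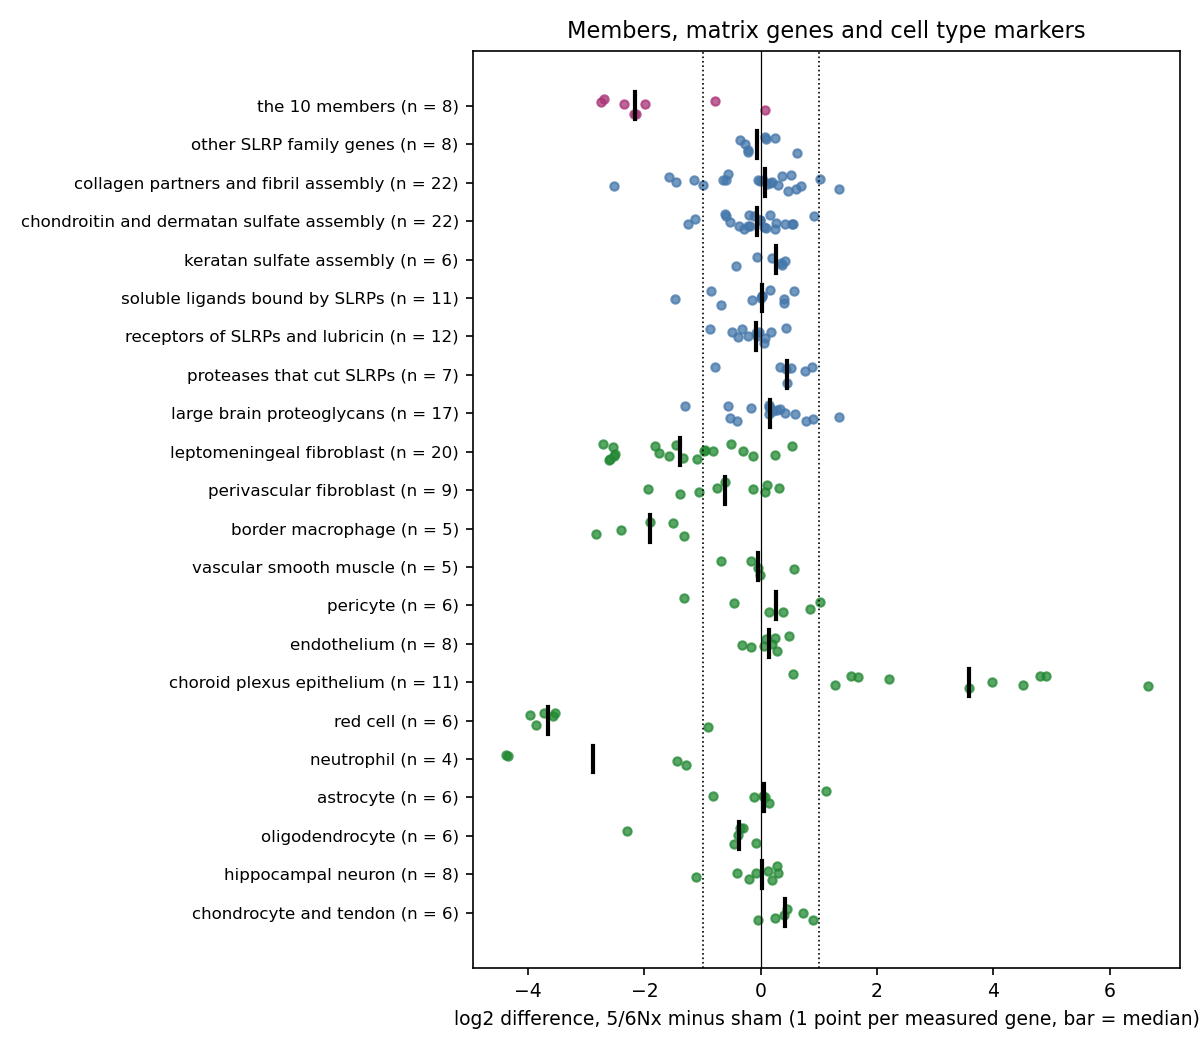
Log2 difference, 5/6Nx minus sham, of each measured gene (point) in the proteoglycan genes, 8 lists of matrix genes and 13 lists of cell type markers, with the list median as a bar and 2-fold as dotted lines. The proteoglycan genes (median -2.16), leptomeningeal markers (-1.39) and border macrophage markers (-1.91) lie to the left. Red cell (-3.65) and neutrophil markers (-2.89) lie farther left, and choroid plexus markers (3.58) to the right. The other matrix lists have medians between -0.08 and 0.45.

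The sizes were read again under other normalizations and background corrections. Dcn lay between -2.23 and -1.93 under all alternatives. Ogn ran from -2.59 to -2.18, Lum from -2.42 to -1.88 and Fmod from -2.38 to -1.91. Omd ran from -2.94 to -1.74, the upper end with no background subtraction. Dcn, Ogn, Lum, Fmod, Omd and Prg4 stayed at least 2-fold lower under all alternatives that gave them a value. Every such value of Prg4 came from its main probe, which was dim in 5/6Nx, and none from its other probe (-0.17).

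**Figure D5:**
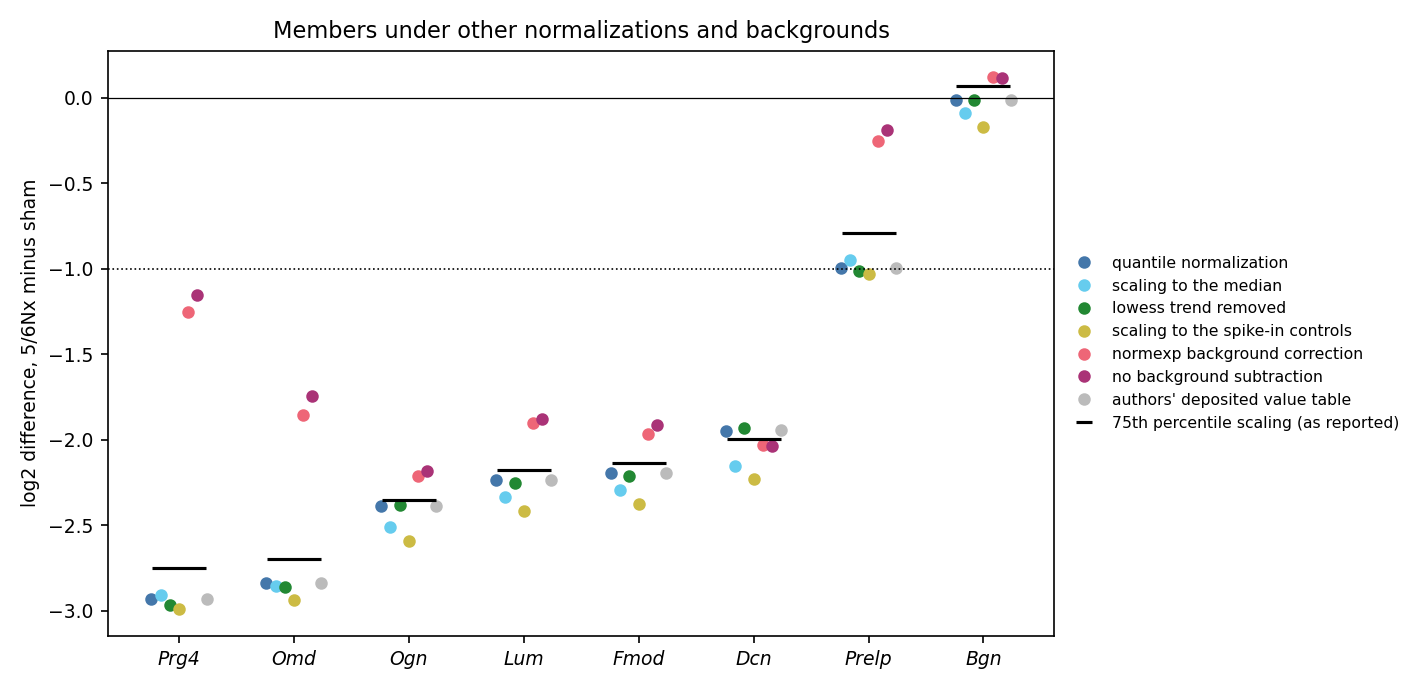
Log2 difference, 5/6Nx minus sham, of the 8 measured genes as reported (black bars) and under 7 other normalizations, background corrections or sources (coloured points). Prg4 and Omd, dim in 5/6Nx, have smaller differences with normexp (-1.25 and -1.86) and with no background subtraction (-1.15 and -1.74), whereas Dcn lies between -2.23 and -1.93.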

How the data were processed

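Each group has 1 one-colour Agilent array. Per the file headers, the authors' scanner output holds linear intensity per spot from Feature Extraction 10.7.1.1 (the submitters' processing notes name 9.5.1.1), background-subtracted and spatially detrended within the array, with no normalization between arrays and probe coordinates on mm9. The deposited table of the series holds intensity that the authors normalized between arrays (sorted columns equal within 0.0323%), and was an alternative here.

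Control spots and outlier spots (105 in sham, 97 in 5/6Nx) were not used. Log2 intensity was taken relative to the 75th percentile of its array (1452 and 1263), and spots of a probe were averaged. A probe counted as well above background where most of its kept spots were. A gene took its brightest probe above background on at least 1 array and was measured when that probe was above background on both. A gene above background on 1 array has a bound: on the dim array it takes the lowest value above background there, or its own value if that is higher. Probes were named through RefSeq genes (GRCm38.p6): the accession named 27318 probes, the symbol 3527 and a synonym 553, while 24283 stayed under the name in the file. The calculation was tested on simulated data. The number of arrays limits the precision.

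Named were the 10 genes, the 1 to 4 genes of each list with the largest differences, the type I and III collagen genes, and neighbours of the 10 on the chromosome. Of the others, Ptgds, Igfbp2, Gjb6, Dpp4, Pcolce, Col5a1, Col5a2, Col6a1, Col6a3, Lrp1, Ms4a7, Bgn's neighbour Trex2 and genes below background were named after their values were seen. So were P2rx4, Igf1, Adamts4, Cygb, Bmp1, Slc6a20a, Nupr1, Mgp and Igf2. The 10 genes and all lists were chosen with earlier results of these data known. Python 3.11.15 and limma 3.58.1 were used.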

Additional observations from a re-analysis of the deposited data

How the results depend on the processing

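No paired analysis was possible because a group is a single array, and none could be left out. The 12 alternatives were run, besides thresholds of 1.5-fold and 3-fold. The 6 genes at least 2-fold apart became 7 after removal of the trend with signal and with spike-in scaling, where Prelp passed, and 7 with no filter on dim probes, where Kera passed on a signal not above background. They became 2 of 2 with a filter at the median signal of the measured genes (Dcn and Ogn), which leaves the other genes out. At 1.5-fold the count was 7 and at 3-fold 6, both with the processing as reported. The median of the measured genes was -2.40 with spike-in scaling, -1.88 with normexp (offset 50) and -1.81 with no background subtraction. Of 90 values of the single genes under alternatives 21 moved by more than 0.20 and 0 of those at least 2-fold apart changed sign. The settings that change only the filter or the choice among probes repeated the reported value of each measured gene. The 90 values thus include repeats that could not move, and the count of 21 understates how far the other settings moved the values. The neighbours on the chromosome were run under the same alternatives, a choice made after seeing the data. Beyond the changes of filter the cause was not tested.

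The background depended on scaling. The median of all genes shifted by -0.24 with spike-in scaling and by -0.16 with scaling to the median. Of the 2-fold differences 59.8% were higher as reported, 47.9% once the trend was removed, 49.2% with quantile normalization, 49.4% in the authors' deposited table, 42.3% with scaling to the median and 34.2% with spike-in scaling. Genes at least 2-fold lower numbered 851 as reported, 1481 with spike-in scaling, 497 (normexp) and 468 (no subtraction), while genes at least 2-fold higher numbered 1268, 770, 683 and 635 in the same order. Low signal over background limits what Aspn, Kera, Prelp and Prg4 can show.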
